A study of Arabidopsis thaliana with 12 samples.

Results

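VQ1 (AT1G17147) is an Arabidopsis thaliana gene of the VQ motif family, and its signal was followed here on all 12 arrays of a study of the secreted signalling peptide CLE2. The gene was chosen from these data because it had the smallest p-value in the comparison of estradiol with DMSO in shoots. Its levels in shoots are therefore given as a description, with no test. It is represented by 1 probe set, paired with no other gene, out of 16722 probe sets that are paired with a single gene. No other row of the table repeats its values.

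VQ proteins are small plant proteins named for a short conserved motif that holds valine (V) and glutamine (Q). Through this motif many of them bind WRKY transcription factors, which read the W box in the promoters of defence and stress genes, and they raise or lower the activity of their WRKY partner. Several VQ proteins are substrates of stress-activated MAP kinases. The sources used here do not annotate a role of VQ1 itself.

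All seedlings carried CLE2 under an estradiol-inducible overexpression system and were 7 days old, grown at 22 °C in continuous white light. Their roots received β-estradiol, given as 5 mM in the labels, or the solvent DMSO for 24 h, and roots and shoots were then collected apart. This gave 4 groups of 3 arrays, named Root DMSO, Root Est, Shoot DMSO and Shoot Est. The treatment text describes estradiol for all samples, and the sample names and treatment tags separate the groups. The labels name neither the promoter of the inducible system, nor the number of independent lines, nor how many seedlings were pooled. No seedlings without the inducible gene received estradiol, so an effect of estradiol itself and one of induced CLE2 cannot be told apart. Nothing in the labels says that replicates were grown separately, so the spread behind the p-values may be technical only.

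The arrays were alike within groups, with correlations of at least 0.978, whereas arrays of different organs correlated at 0.880 or less. CLE2 has no probe set paired with it here, so its induction was not analysed here. The organ labels were checked with marker genes: all 5 measured root markers of 17 listed were higher in roots, and both measured photosynthesis markers of 25 listed were higher in shoots.

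VQ1 was higher in roots than in shoots, and its lowest level was in the shoots of DMSO seedlings. In Root DMSO its log2 signal was 8.38, 8.36 and 8.43 on replicates 1 to 3. In Root Est it was 8.61, 8.59 and 8.52. In Shoot DMSO it was 6.60, 6.38 and 6.76, and in Shoot Est it was 7.75, 7.58 and 7.62. Every root array lay above every shoot array, every Shoot Est array above every Shoot DMSO array, and every Root Est array above every Root DMSO array. The 4 groups thus followed each other without overlap, from Shoot DMSO through Shoot Est and Root DMSO to Root Est.

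The distances between neighbours in this order were unequal. Shoot Est lay 1.07 log2 units above Shoot DMSO, and Root DMSO lay 0.74 above Shoot Est. Root Est lay only 0.18 above Root DMSO, and the closest arrays of these groups were 0.09 apart. These distances compare with standard deviations of 0.04 in Root DMSO, 0.05 in Root Est, 0.19 in Shoot DMSO and 0.09 in Shoot Est (n = 3 each). Of the 3 distances, only that between the root groups was tested, as given below; the distance between the shoot groups is the one VQ1 was chosen for.

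**Figure D1:**
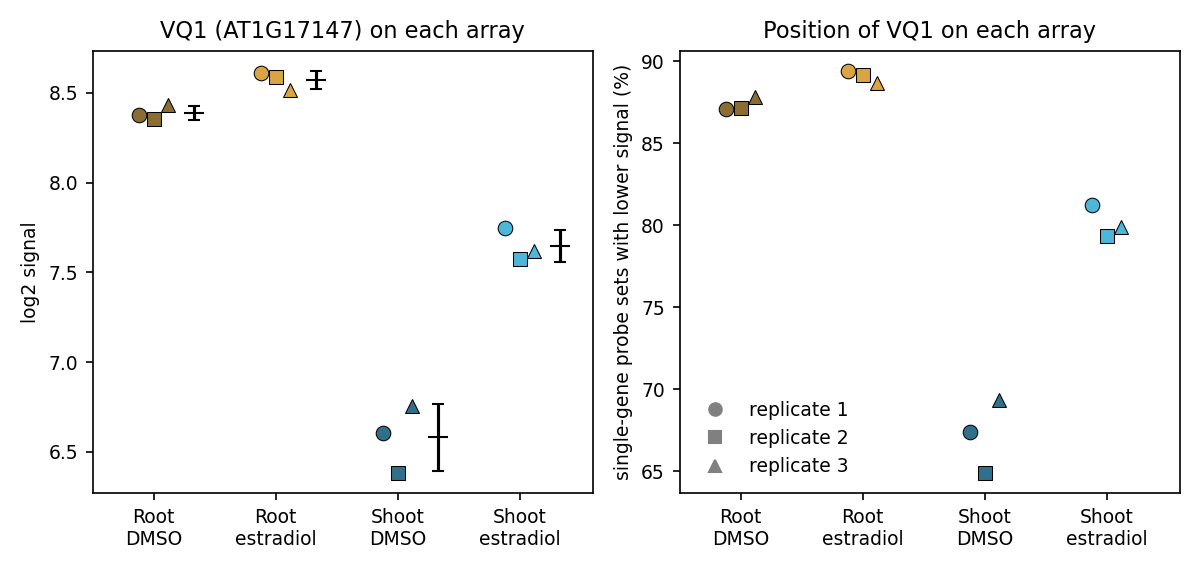
VQ1 on each of the 12 arrays: log2 signal (left, with group mean ± SD, n = 3, beside the points) and the percentage of single-gene probe sets with a lower signal on the same array (right); neither axis starts at 0. The root arrays lie between 8.36 and 8.61, the Shoot Est arrays between 7.58 and 7.75 and the Shoot DMSO arrays between 6.38 and 6.76.

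The position of VQ1 among all 16722 single-gene probe sets followed the same order. Counted from the strongest signal, it ranked between 2039 and 2156 on the Root DMSO arrays and between 1772 and 1891 on the Root Est arrays. It ranked between 5128 and 5872 in Shoot DMSO and between 3138 and 3458 in Shoot Est. In Root Est 88.7 to 89.4% of the probe sets were dimmer, and in Shoot DMSO 64.9 to 69.3%. VQ1 was above the array median of these probe sets, which lay between 5.11 and 5.34, on all arrays. Signals of different probe sets also depend on their probes, so a rank describes the signal of the probe set and not the number of transcripts relative to other genes.

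Averaged over both treatments, VQ1 was 1.37 ± 0.07 log2 units (SE) higher in roots than in shoots, a 2.58-fold difference (limma, adjusted p = 1.12e-08). This average over treatments does not use the difference between the shoot groups by which the gene was chosen, but its standard error rests on the spread between replicates that also entered that choice, so the p may be too small. All 6 root arrays lay above all 6 shoot arrays (exact two-sided permutation test, p = 0.00217, the smallest it can give). A difference between organs is common on these arrays: 64.3% of the 16548 genes passed the same threshold, 30.3% as higher in roots, and 44.6% had root and shoot arrays that did not overlap. By the size of the difference in either direction VQ1 stood at place 2550, above 84.6% of genes. In bulk samples, fewer cells of a type and less RNA per cell cannot be told apart.

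The distance between organs was unequal under the treatments, as a description that includes the shoot arrays behind the choice. Root DMSO exceeded Shoot DMSO by 1.81 log2 units, or 3.50-fold, and Root Est exceeded Shoot Est by 0.93, or 1.90-fold. The Shoot Est level thus lay between the Shoot DMSO and the root levels.

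In the treated roots themselves VQ1 did not pass the threshold. The log2 difference between Root Est and Root DMSO was 0.18 ± 0.10 (SE), with a 95% interval from -0.04 to 0.41, or 1.14-fold (limma, unadjusted p = 0.0971, adjusted p = 1.00 over 16548 genes). Of all genes, 0 passed it in roots (0%), while 855 were under 0.05 before adjustment. All 3 Root Est arrays lay above all 3 Root DMSO arrays, which 12.3% of genes did in either direction. An exact two-sided permutation test gave p = 0.10, the smallest that 3 arrays against 3 can give. Ranked by p, VQ1 stood at place 1566, and ranked from the most positive difference at place 2229.

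The spread of VQ1 is given by organ, with no test. A choice by the smallest p favours a gene with a small spread. In the fit used here that spread covers all 4 groups, roots included. The pooled standard deviation of VQ1 within groups was 0.045 in roots, and only 2.78% of genes varied less there. In shoots it was 0.15, against a median of 0.19 over all genes and of 0.10 over the 1846 genes whose mean level lay within 0.5 log2 units of that of VQ1, so that its shoot spread was above that of 78.0% of genes of like level. Over all 4 groups it was 0.11, with 19.7% of all genes and 51.5% of genes of like level below. In roots, 6.72% of genes of like level varied less. The standard errors above use the common spread over 4 groups, moderated by limma, which is larger than the spread of VQ1 between root arrays. With the 6 root arrays fitted alone the unadjusted p was 0.0657 and the adjusted p 0.732 (limma).

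In shoots, VQ1 went from 6.58 ± 0.19 to 7.65 ± 0.09 log2 units (mean ± SD, n = 3), which are 95.7 and 201 as geometric means of the linear signal. Arrays of the same replicate number differed by 1.15, 1.19 and 0.86. The closest arrays of the groups, Shoot DMSO replicate 3 and Shoot Est replicate 2, were 0.82 apart. Over all genes, 13.2% had shoot groups that did not overlap, and 0.163% passed an adjusted p of 0.05.

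By p, VQ1 ranked at place 1 of 16548 genes in shoots, but by size its rise ranked at place 25. The next genes by p were AT5G55970, with a log2 difference of 1.13 ± 0.13 (SE) in shoots, and AT5G18130, with 1.20 ± 0.14, against 1.07 ± 0.10 for VQ1. Both had a larger difference than VQ1, so with their larger p their standard errors had to be larger too. Just above VQ1 by size stood AT5G03820 at 1.08 ± 0.30, and just below it AT3G20340 at 1.07 ± 0.21 and AT5G43200 at 1.05 ± 0.28. VQ1 had the smallest standard error of these 6 genes, which follows largely from its choice by the smallest p.

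**Figure D2:**
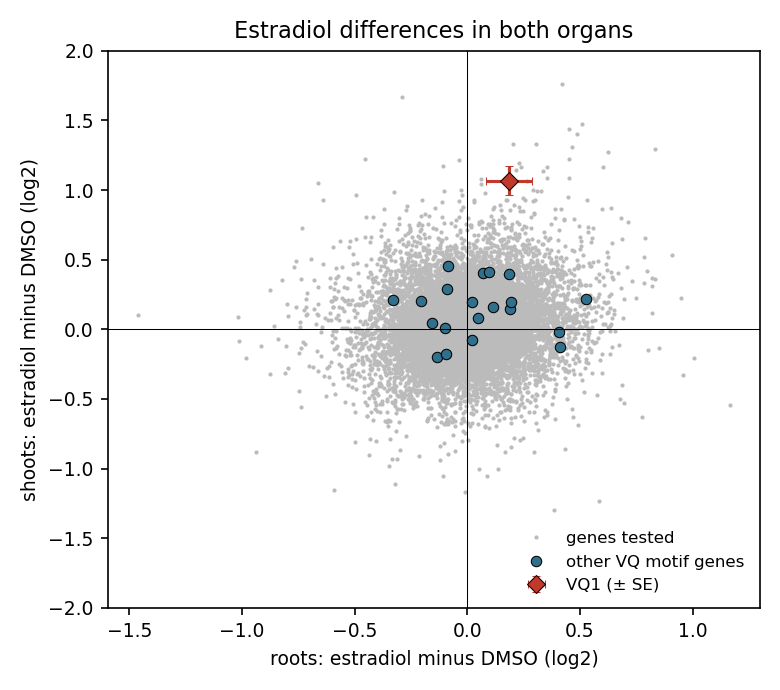
Log2 difference between estradiol and DMSO in roots (x axis) and in shoots (y axis) for each of the 16548 genes (grey), the 20 other measured VQ motif genes (blue) and VQ1 (red, ± SE). VQ1 lies at 0.18 in roots and 1.07 in shoots; the other VQ motif genes lie between -0.20 and 0.46 in shoots.

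Because VQ1 is higher in roots, the level of root markers on the shoot arrays is given beside its shoot values. The 5 measured markers (of 17) had shoot differences between -0.00 and 0.54 log2 units, and 0 of them passed the threshold in shoots (limma, smallest adjusted p = 0.651). Only 0.163% of all genes passed it, so this count cannot show whether root signal differed between the shoot groups. The mean log2 signal of the 5 markers was between 5.30 and 5.44 on the Shoot DMSO arrays and between 5.31 and 5.62 on the Shoot Est arrays. On the root arrays it was between 8.31 and 8.48. Their summed linear signal came mostly from the β-glucosidase gene PYK10. The sum was between 3769 and 4277 on the Shoot DMSO arrays and between 3949 and 4254 on the Shoot Est arrays. On the root arrays it was between 10483 and 11159, and none of the sums was at 0. PYK10 had an organ difference of 1.36, against 1.37 for VQ1. It was at 11.93 ± 0.10 in Shoot DMSO and 11.98 ± 0.06 in Shoot Est. The widest shoot difference was that of the root hair expansin gene EXPA18, at 0.54 ± 0.34 (SE) with an organ difference of 4.36. The lateral root genes LBD29 and LBD16 had shoot differences of -0.00 and 0.04, and the expansin gene EXPA7 0.01.

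The family of VQ1 was examined through a list of 34 loci, of which 21 were measured, VQ1 included. The list was drawn up from general knowledge, and the RefSeq table names most of these loci by their code only. The 12 unmeasured loci that no probe set was paired with and the 1 paired together with other genes include those that RefSeq names as MAP kinase targets. None of the 9 MAP kinase cascade genes listed was measured, and 1 of 32 WRKY genes of the groups that bind VQ proteins was. That gene, WRKY20, was lower in roots by 0.25 ± 0.06 log2 units (SE; limma, adjusted p = 0.00283), and had estradiol differences of -0.01 in roots and -0.04 in shoots.

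In shoots, 0 of the 20 other VQ motif genes passed the threshold for estradiol, with 0.418 as the lowest adjusted p (limma). Of all 16548 genes only 27 (0.163%) passed it, so a count of 0 does not set the family apart. Before adjustment, 2 of the 20, and 1646 of all genes, were under 0.05. The median difference of the 20 was 0.18, against -0.00 over all genes, with 15 positive and 5 negative. The highest was AT1G78410, which was at 2.91, 2.87 and 2.78 in Shoot DMSO and at 3.70, 2.84 and 3.39 in Shoot Est. Its Shoot Est replicate 2 lay within the DMSO range, so the groups overlap. AT3G60090, AT1G21326 and AT1G32585 followed at 0.41, 0.41 and 0.39, and AT5G08480 and AT5G65170 were lowest at -0.20 and -0.18. Shoot groups without overlap were found for 0 of these 20 genes and for 13.2% of all genes.

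In roots, 0 of the 20 passed, with 0.942 as the lowest adjusted p (limma), and 0 of all 16548 genes did (0%). Before adjustment, 1 of the 20, and 855 of all genes, were under 0.05. The 1 gene was AT3G18360, at 3.88 ± 0.27 in Root DMSO and 4.41 ± 0.40 in Root Est (SD, n = 3). The median difference was 0.03, with 12 positive and 8 negative. The root arrays of 2 of the 20 genes did not overlap between treatments, near the 12.3% of all genes: AT5G46780 was between 7.98 and 8.12 in Root DMSO and between 8.20 and 8.28 in Root Est, and AT1G35830 was between 7.29 and 7.37 and then between 7.11 and 7.23. The first of them was thus on the higher side with estradiol and the second on the lower. AT4G20000 and AT3G58000 had positive root differences of 0.41 each, and AT2G44340 the most negative, at -0.33.

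Between organs, 8 of the 20 VQ motif genes were higher in roots and 5 lower, and 7 did not pass (limma, adjusted p under 0.05). The background of all genes is 30.3% higher and 34% lower. AT2G44340 had the largest excess in roots, at 2.57 ± 0.23 log2 units (SE), with 5.24 to 6.16 on root arrays and 2.66 to 4.07 on shoot arrays. AT5G65170 at 1.46, AT5G46780 at 1.39 and AT1G21326 at 1.31 stood next to VQ1 at 1.37. AT4G15120, AT4G20000, AT1G35830 and AT2G22880 were higher in roots by 1.05, 1.04, 0.90 and 0.82. Root and shoot arrays did not overlap for 11 of the 20, near the 44.6% of all genes.

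Lower in roots were AT1G78410 at -1.09, AT3G58000 at -1.05, AT3G56880 at -0.58, AT1G32585 at -0.43 and AT5G08480 at -0.32. AT1G78410 and AT1G32585 were dim, with only 10.8 and 5.83% of genes below their mean level. The 7 that did not pass were AT2G42140, AT1G80450, AT3G18360, AT3G60090, AT1G21320, AT5G08780 and IKU1 (HAIKU1), a regulator of endosperm growth and seed size. IKU1 was at 9.84 to 10.24 on all arrays, with an organ difference of 0.13 ± 0.09 (SE) and estradiol differences of 0.05 in roots and 0.08 in shoots.

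**Figure D3:**
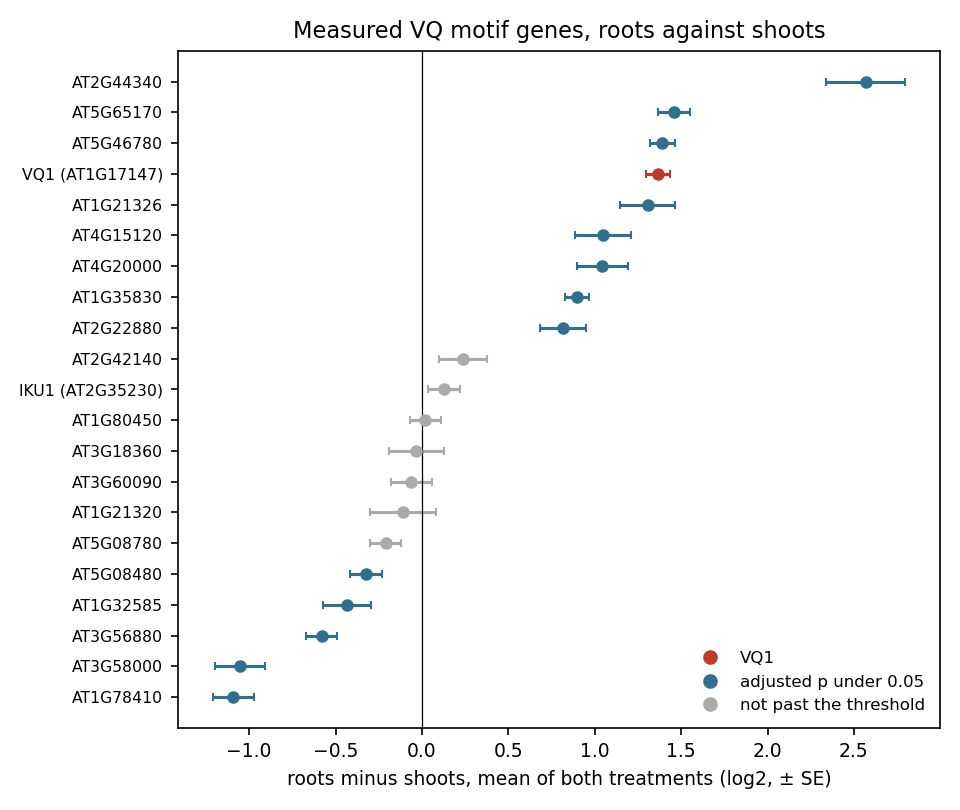
Log2 difference between roots and shoots, averaged over both treatments, with limma's SE, for the 21 measured VQ motif genes; blue points passed an adjusted p of 0.05 and VQ1 is red. VQ1, at 1.37, is the fourth highest, and the genes run from -1.09 to 2.57.

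AT5G46780 had values close to VQ1 in its organ and root differences, and a smaller shoot difference. AT5G46780 was at 8.04 ± 0.07 in Root DMSO, 8.24 ± 0.04 in Root Est, 6.65 ± 0.08 in Shoot DMSO and 6.84 ± 0.19 in Shoot Est (SD, n = 3). Its estradiol difference was 0.20 in roots and 0.19 in shoots, against 0.18 and 1.07 for VQ1. The difference between these genes in shoots was not tested, because VQ1 was chosen for its shoot value.

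The genes most like VQ1 were found by Pearson's r over the 12 log2 values, as a description that holds the organ difference and the shoot difference together. AT5G18130 was closest (r = 0.986), followed by AT5G55970, a RING-type ubiquitin ligase gene (r = 0.984), AT5G63190 (r = 0.983) and AT2G32150 (r = 0.979). AT1G32700, the glucosyltransferase gene UGT73B1, AT2G24550 and AT5G16110 followed, with r from 0.974 to 0.978. Of the other 16547 genes, 350 had an r over 0.9 and 2706 an r over 0.8. The organ difference enters all of these values. Among VQ motif genes, AT1G21326 (r = 0.918) and AT5G46780 (r = 0.906) were closest to VQ1.

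All 8 of these genes were higher in roots, by at least 0.57 log2 units, and had shoot differences between 0.41 and 1.20 and root differences between 0.06 and 0.41. AT5G18130 had group means of 6.45 in Root DMSO, 6.68 in Root Est, 4.22 in Shoot DMSO and 5.42 in Shoot Est. AT5G55970 was at 8.77, 9.11, 6.67 and 7.81 in the same groups. In both, as in VQ1, the Shoot Est mean lay between the Shoot DMSO and the root means. All 8 genes were picked for values like those of VQ1 on these arrays, so a shared order of groups follows largely from that choice.

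**Figure D4:**
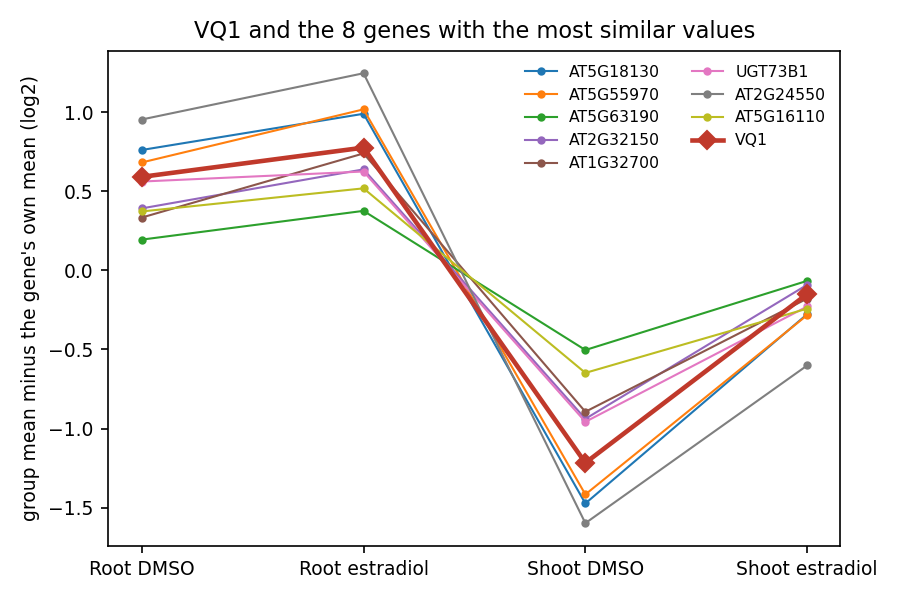
Group means of log2 signal, each gene centred on the mean of its own 4 group means, for VQ1 (red) and the 8 genes with the highest Pearson's r to it over 12 arrays (0.974 to 0.986). The lines join groups of one gene for reading only; in all 9 genes Shoot DMSO is lowest and Root Est highest.

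When group means were removed, so that only the spread between replicates was left, other genes were closest to VQ1. They were AT3G50710 (r = 0.952), AT5G07330 (r = 0.930), AT2G37370 (r = 0.929) and AT1G11210 (r = 0.927), all with group means between 3.10 and 4.15. Their shoot differences lay between -0.40 and 0.16. These are the highest of 16547 values of r over 12 deviations in 4 groups, and are given as values only.

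In the gene order of the RefSeq table (TAIR10.1), VQ1 lies between AT1G17145 and AT1G17150, both protein-coding. AT1G17145 was at 8.15 in both shoot groups, at 7.84 in Root DMSO and at 7.78 in Root Est. AT1G17150 had group means between 3.03 and 3.49, with estradiol differences of -0.12 in roots and 0.17 in shoots, and the next gene, AT1G17160, had -0.08 and 0.03. Averaged over treatments, both flanking genes were lower in roots, by 0.34 and 0.32 log2 units (limma, adjusted p = 0.00089 and 0.0124). This is the opposite direction to VQ1, and 34% of all genes passed as lower in roots. AT1G17160 was higher in roots by 0.38 (limma, adjusted p = 0.00393), the same direction as VQ1, and 30.3% of all genes passed as higher. Under DMSO alone AT1G17150 did not pass (limma, adjusted p = 0.298).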

How the data were processed

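RNA was measured on 12 single-colour Affymetrix arrays. The authors' deposited values are log2 signals, 1 per probe set and array, for which the submitters' processing notes name Affymetrix Expression Console 1.3; no source used here gives the summarization, background correction or normalization. GEO's platform annotation pairs 16722 of 38408 probe sets with 1 gene, 759 with several and 20927 with none. The brightest probe set per gene gave 16548 genes, with symbols from RefSeq's TAIR10.1 table.

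Tests used limma 3.58.1 in R 4.3.3 (lmFit, eBayes; 1 mean per group, 8 residual degrees of freedom, no filter), with Benjamini-Hochberg adjustment over all genes and a threshold of 0.05. Exact permutation tests used scipy 1.17.1. The code was tested on simulated data. The number of arrays limits the precision.

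VQ1 and the lists were chosen with earlier results of these data known. Named were VQ1, every measured listed VQ gene, called WRKY or MAP kinase genes, the 8 and 4 genes most like VQ1 over values and deviations, and its neighbours in the shoot ranking; marker genes and flanking genes were named by list and position. Same-numbered arrays of compared groups had deviations that correlated at 0.023 to 0.14, not all above 0.1, so numbers were not taken to pair samples.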

Additional observations from a re-analysis of the deposited data

How the results depend on the processing

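Alternatives were fits per organ, replicate blocks, seedling sets as a random block, trend and robust eBayes, array weights, quantile normalization, median subtraction, 16 added to linear values, dim genes left out, unnamed probe sets included, a threshold of 0.1 and each array left out. The root difference of VQ1 stayed between 0.16 and 0.23 log2 units and missed the threshold in all 23 (limma, adjusted p from 0.718 to 1.00). The organ difference stayed between 1.26 and 1.41 and passed in all 22 (limma, adjusted p from 2.31e-12 to 1.54e-07). The shoot difference, untested, was 0.95 to 1.15. Its place by p was 1 in 14 of 23 and at worst 5, with shoots fitted alone or with a replicate block. VQ1 was chosen on these same arrays for this place, so its stability is no support. The threshold of 0.1 cannot change the place. In the fits with a replicate block, the root difference was 0.18 (limma, adjusted p from 0.851 to 1.00) and the organ difference 1.37. VQ motif genes called between organs numbered 13 to 14, except 7 among genes above the median level, where only 8 of the 20 were left to test, and 0 were called for estradiol in either organ under any alternative run. After medians were subtracted, the median root and shoot differences of all genes were 0.04 and 0.08. The family counts cover the 21 of 34 listed loci that have a single-gene probe set.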
